A study of Mus musculus with 12 samples.

Results

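Murinoglobulins, pregnancy zone protein and the inter-alpha inhibitors are plasma proteins that the liver secretes to hold proteinases in check and to build extracellular matrix. The 8 genes examined here were Mug1, Mug2, Pzp, Itih1, Itih2, Itih3, Itih4 and Ambp, chosen by symbol from the 24197 rows of the deposited RefSeq table, and all 8 were found there. RNA came from livers of untreated CD-1 mice, an outbred stock, 7 to 11 weeks old. The 4 groups were male nuclear, female nuclear, male total and female total RNA, each of 3 pools with RNA of 12 to 17 mice per pool, so individual animals were not resolved. Ribosomal RNA had been depleted, in part, from every library, and nuclei had been purified through sucrose before the nuclear RNA was extracted. The levels are the authors' mean FPKM (fragments per kilobase of transcript, scaled to sequencing depth) of a group, and no values per pool were used here, so levels carry no SD. A sex difference was called when the adjusted p of the authors' deposited table was under 0.05, and its log2 values are male over female.

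The proteins fall into a macroglobulin and an inter-alpha inhibitor family. Alpha-macroglobulins (Mug1, Mug2 and Pzp) carry a bait region, and a proteinase that cuts it is caged by the inhibitor, while an internal thioester can bind it covalently. Rodent murinoglobulins work as monomers and pregnancy zone protein is the tetrameric alpha-macroglobulin of mouse plasma. Ambp encodes a precursor that is split into the haem-binding lipocalin alpha-1-microglobulin and the Kunitz-type proteinase inhibitor bikunin. Chondroitin sulphate on bikunin links it to heavy chains, which Itih1, Itih2 and Itih3 encode and which can be passed on to hyaluronan. The Itih4 protein belongs to the heavy chain family but does not join bikunin, and it is known as an acute-phase protein in several mammals.

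On mm9, Mug1 (chromosome 6, 121788558 to 121839075) and Mug2 (121956815 to 122035985) lay 117.74 kb apart, and Pzp (128433584 to 128476738) lay on chromosome 6 too, 6397.6 kb beyond Mug2. Itih4 (chromosome 14, 31699661 to 31715172), Itih3 (31721759 to 31736773) and Itih1 (31742365 to 31756475) were direct neighbours, with gaps of 6.587 and 5.592 kb. Itih2 (chromosome 2, 10016217 to 10052310) and Ambp (chromosome 4, 62804312 to 62815176) stood on other chromosomes. The longest coding transcripts of GENCODE M21 (GRCm38) had 36 exons and 4657 bases for Mug1 and 35 exons and 4579 bases for Mug2. Their identity was 95.1% over 4573 aligned bases, against 65.4% between Mug1 and Pzp. In that comparison 20.9% of the 50-base stretches of Mug1 also occurred in Mug2, so the division of reads between murinoglobulin genes is uncertain. The heavy chain transcripts were 60.2% to 67.3% identical in pairs and shared no 50-base stretch.

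The upstream sequences are shown for the pair of murinoglobulins, near-copies of which Mug1 was called and Mug2 was not, and for Itih1 and Itih4, the outer genes of a cluster that was lower in male nuclei. They are the bases of the RefSeq promoter table (GRCm38.p6) that lie before the outermost annotated start, at chr6:121838291-121838495 (plus strand), chr6:122006548-122006728 (plus strand), chr14:30943290-30943539 (minus strand) and chr14:30886226-30886475 (plus strand). Capitals mark matches on either strand to GTTAAT (a half-site of HNF1), ATTGAT (HNF6) or TTCNNNGAA (STAT5), none of which overlapped another.
Mug1: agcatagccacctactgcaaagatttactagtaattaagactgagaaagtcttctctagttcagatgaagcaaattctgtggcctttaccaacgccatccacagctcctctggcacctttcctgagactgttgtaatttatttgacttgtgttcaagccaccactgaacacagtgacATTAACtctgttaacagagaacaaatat
Mug2: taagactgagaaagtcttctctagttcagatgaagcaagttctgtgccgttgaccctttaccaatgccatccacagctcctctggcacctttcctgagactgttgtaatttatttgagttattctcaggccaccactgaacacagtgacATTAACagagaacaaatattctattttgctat
Itih1: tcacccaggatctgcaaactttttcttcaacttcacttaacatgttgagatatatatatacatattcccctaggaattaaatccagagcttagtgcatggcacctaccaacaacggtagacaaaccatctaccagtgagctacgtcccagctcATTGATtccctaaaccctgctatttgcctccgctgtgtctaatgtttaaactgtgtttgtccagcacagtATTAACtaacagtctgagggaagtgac
Itih4: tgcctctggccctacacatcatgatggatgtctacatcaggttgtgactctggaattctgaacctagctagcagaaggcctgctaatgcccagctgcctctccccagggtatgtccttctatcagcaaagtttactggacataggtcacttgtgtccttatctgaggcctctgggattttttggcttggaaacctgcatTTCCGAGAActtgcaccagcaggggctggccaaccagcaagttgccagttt

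Over the 250 bases before the table's start, 196 of 206 aligned bases (95.1%) were identical between Mug1 and Mug2. GTTAAT was present in 4 of the 8 members (Mug1, Mug2, Pzp and Itih1), against 6.43% of 32851 promoter windows of that length. The matches of Mug1 and Mug2 lie in near-identical sequence, so they are not independent of each other. ATTGAT was present in 3 of the 8 (Pzp, Itih1 and Itih2), against 6.72% of windows, and TTCNNNGAA in 1 of the 8 (Itih4), against 7.02%. The C/EBP motif searched, TTGCNNAAT, was in 0 of the 8, against 2.11% of windows. The sequence TATAAA was also in 0 of the 8, against 12.4% of windows. These matches describe the letters in the window, and no binding was measured.

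All 8 genes were abundant. The lowest and highest of the authors' mean levels were 17.1 FPKM (Itih2) and 120 FPKM (Mug1) in male nuclear RNA, and 20.6 FPKM (Itih2) and 185 FPKM (Itih3) in female nuclear RNA. In total RNA they were 11.4 FPKM (Mug2) and 187 FPKM (Pzp) in males, and 22.8 FPKM (Mug2) and 214 FPKM (Pzp) in females. Itih3 held rank 6 of all genes in female nuclear RNA and Mug1 rank 10 in male nuclear RNA, whereas the highest rank in total RNA was 32, that of Pzp in females. The 8 genes together took 1.03% of the FPKM sum of the table in male nuclear, 1.53% in female nuclear, 0.879% in male total and 0.897% in female total RNA. Library sizes recovered from the smallest FPKM steps ran 20.2 to 22.7 M reads in the nuclear and 11.3 to 24.4 M reads in the total RNA libraries. At those sizes the members' means correspond to about 902 (Ambp, male nuclear) to 20959 (Pzp, female total) reads per library.

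**Figure D1:**
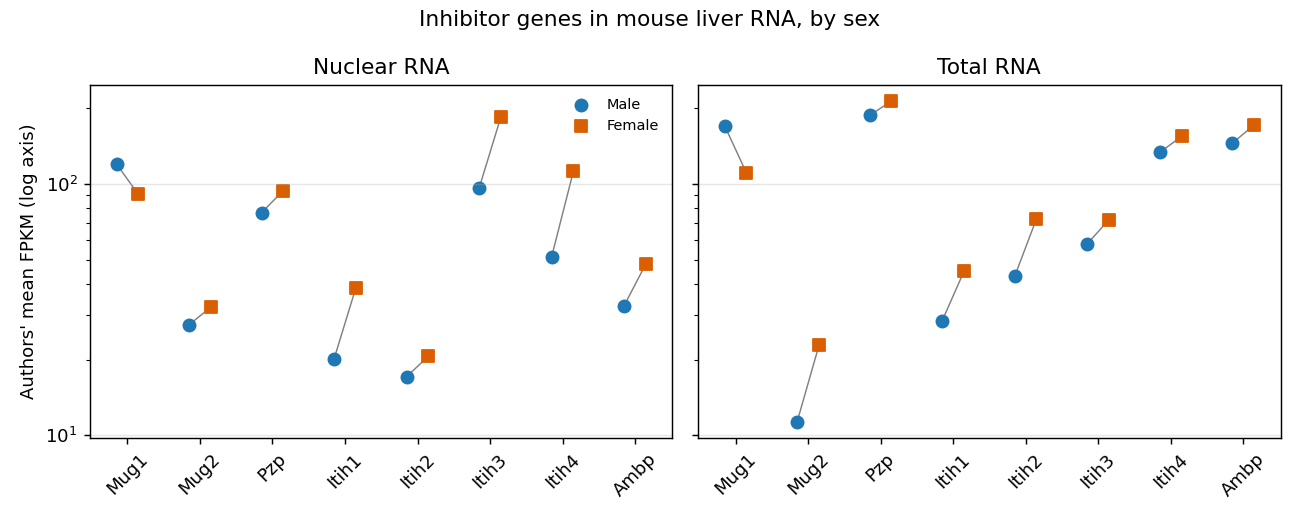
Levels of the 8 genes as the authors' mean FPKM (log axis) in nuclear RNA (left) and total RNA (right), with males as blue circles and females as orange squares. Mug1 is the only gene whose male point lies above the female point in both panels, and Itih4, at 51.4 FPKM in males and 112 FPKM in females, has the widest gap in nuclear RNA.

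Hepatocyte genes were abundant: all 8 markers of that list were above 1 FPKM in both fractions. Their summed levels were 3671 FPKM in male and 6673 FPKM in female total RNA, of which Alb alone gave 2711 and 5481 FPKM. In nuclear RNA 1 was called higher in males and 2 in females, and in total RNA 1 and 3, by the authors' deposited table. These are 37.5% and 50% of the list, against 5.8% and 4.46% of all genes and 48.6% and 25.1% of genes of at least 10 FPKM. Of the other cell types, Kupffer cell markers were called higher in females in 3 of 10 cases in total RNA and in none of 10 in nuclear RNA by the authors' deposited table. Their summed levels were 18.2 FPKM in male and 38.4 FPKM in female total RNA, and 7.91 and 8.55 FPKM in male and female nuclear RNA. Neither these sums nor those of the hepatocyte list carry the scaling of the deposited ratios. The median log2 of the Kupffer list in total RNA was -0.51 by the authors' deposited table and -1.04 in plain quotients of the means. Endothelial and stellate markers were each called higher in females in 2 of 9 cases in total RNA by the authors' deposited table. Cholangiocyte markers had 1 call of 7, higher in males, in that fraction of the authors' deposited table. Over all genes, 2.36% were called higher in females and 2.1% higher in males in total RNA by the authors' deposited table. No marker of these lists of other cells was called in nuclear RNA by the authors' deposited table, and no Kupffer, endothelial or stellate marker stood at 0 in any group. Their part in the results was not tested, and in RNA of whole tissue fewer cells of a type and less RNA per cell cannot be told apart. All nuclear pools ran in lane 4. In total RNA the 3 male pools and 1 female pool ran in lane 3 and the other female pools in lane 4, so sex and lane overlap in part, and the part of the lane was not tested because no values per pool were used.

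In nuclear RNA the neighbours Itih1, Itih3 and Itih4 and the bikunin precursor gene Ambp were lower in males, Mug1 was higher in males, and Mug2, Pzp and Itih2 were not called. By the calls of the authors' deposited table, 1 member was higher in males, 4 were higher in females and 3 had no call, against a background of 5.8% of 17467 genes called. Among the 362 genes of at least 10 FPKM in a sex, however, 48.6% were called in nuclear RNA by the authors' deposited table, and calls for 5 of 8 members lay near that background. In total RNA the authors' deposited table had Mug1 higher in males, Itih2 higher in females and 6 members not called, against 4.46% of 16404 genes and 25.1% of the 895 genes of at least 10 FPKM. With a difference over 2-fold also required, 1 member was called in nuclear RNA (Itih4) and 1 in total RNA (Mug1) by the authors' deposited table, against 1.61% and 1.8% of genes. At a threshold of 0.01 the numbers were 4 in nuclear and 1 in total RNA by the authors' deposited table, against 4% and 3.1% of genes. The members' median log2 was -0.31 in nuclear and 0.17 in total RNA by the authors' deposited table, beside -0.09 and -0.02 for all genes of at least 10 FPKM. In plain quotients of the means the members' median was -0.42 in nuclear and -0.28 in total RNA, so its sign in total RNA turns with the scaling. The deposited ratios are scaled between libraries: relative to the plain quotient of the means they were higher by a median of 0.48 in total and 0.12 in nuclear RNA (log2).

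**Figure D2:**
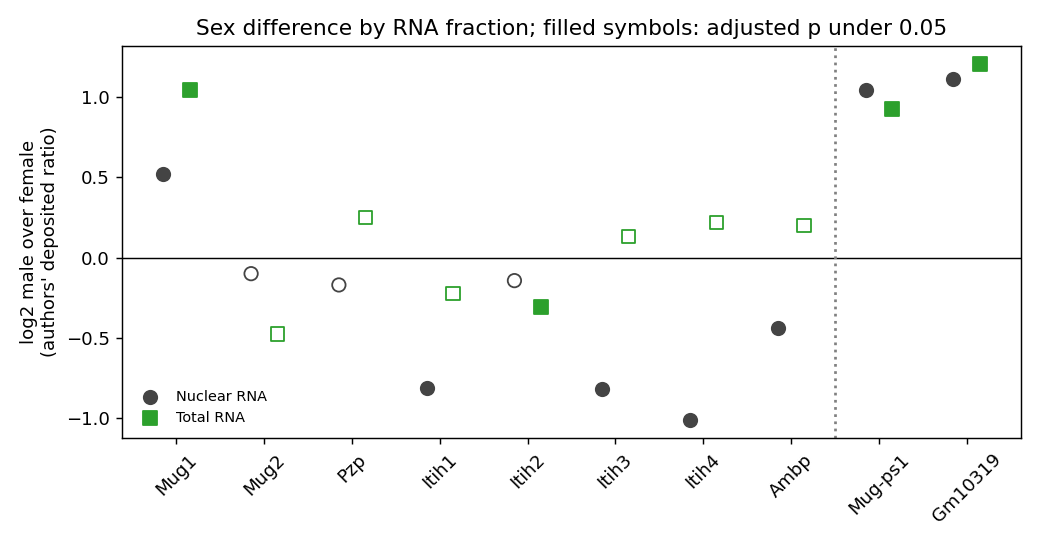
log2 male over female of the authors' deposited table in nuclear RNA (grey circles) and total RNA (green squares) for the 8 genes and, right of the dotted line, the pseudogenes Mug-ps1 and Gm10319, with symbols filled where the adjusted p was under 0.05. Itih1, Itih3, Itih4 and Ambp are filled in nuclear RNA only, Itih2 in total RNA only, and Mug1 in both.

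Mug1 was the member called in both fractions. It averaged 120 FPKM in male and 90.8 FPKM in female nuclear RNA, and 170 FPKM in male and 111 FPKM in female total RNA. Per the authors' deposited table its log2 was 0.52 in nuclear RNA, with an adjusted p of 9.3e-05, and 1.04 in total RNA, with an adjusted p of 2.8e-16. Its near-copy Mug2 had 27.5 FPKM in male and 32.3 FPKM in female nuclear RNA, and 11.4 FPKM in male and 22.8 FPKM in female total RNA. Mug2 was not called by the authors' deposited table, with log2 -0.10 (adjusted p = 1) in nuclear and -0.48 (adjusted p = 0.21) in total RNA. The ratio of Mug1 to Mug2 was 4.35 in males and 2.81 in females in nuclear RNA, and 15 in males and 4.86 in females in total RNA.

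The murinoglobulin locus holds further transcribed copies. The pseudogene Mug-ps1 (mm9 chromosome 6, 122126070 to 122198584), on the list of thioester proteins, had 33.6 FPKM in male and 17.6 FPKM in female nuclear RNA, and 6.80 FPKM in male and 4.77 FPKM in female total RNA. Gm10319 (122086645 to 122100976), a transcribed pseudogene per RefSeq, lies 50.66 kb past Mug2 and was picked out after its values were seen. It had 39.4 FPKM in male and 19.7 FPKM in female nuclear RNA, and 9.11 FPKM in male and 5.46 FPKM in female total RNA. Both were higher in males in both fractions by the authors' deposited table, Mug-ps1 at log2 1.05 (adjusted p = 5.2e-16) in nuclear and 0.92 (adjusted p = 2.6e-10) in total RNA. For Gm10319 the authors' deposited table gave 1.11 (adjusted p = 1.8e-10) in nuclear and 1.21 (adjusted p = 3.7e-15) in total RNA. Of the 50-base stretches of the Mug-ps1 transcript 34.3% occurred in another of the 4 murinoglobulin transcripts, and for Gm10319 20.1%, for Mug1 25% and for Mug2 41.7%. Mug2, placed between genes called higher in males on either side, thus had the largest share of such shared stretches. Summed over the 4 genes, the locus had 220 FPKM in male and 160 FPKM in female nuclear RNA, and 197 FPKM in male and 144 FPKM in female total RNA.

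**Figure D3:**
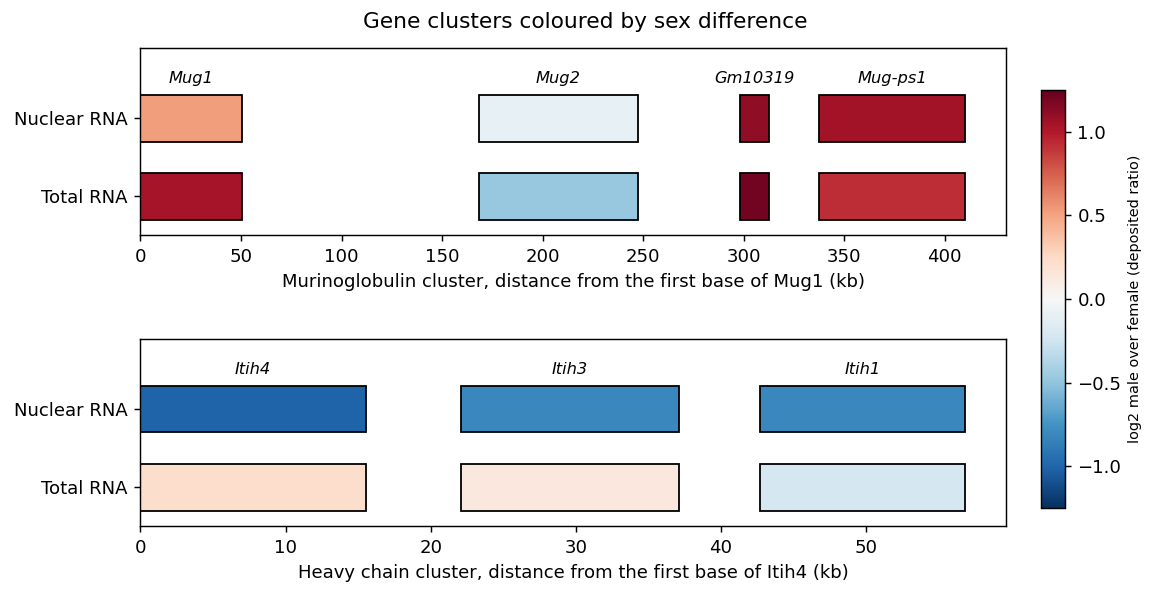
Gene bodies of the murinoglobulin locus (top, distance in kb from the first base of Mug1) and of the heavy chain locus (bottom, distance in kb from the first base of Itih4), coloured by log2 male over female of the authors' deposited table in nuclear and total RNA. Red marks higher in males: Mug1, Gm10319 and Mug-ps1 are red in both rows, while the heavy chain genes are blue in nuclear RNA and pale in total RNA.

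Pzp, the tetrameric macroglobulin, was the most abundant member in total RNA. Its means were 76.8 FPKM in male and 94 FPKM in female nuclear RNA, and 187 FPKM in male and 214 FPKM in female total RNA. The authors' deposited table did not call it, with log2 -0.17 (adjusted p = 0.60) in nuclear and 0.25 (adjusted p = 0.13) in total RNA. A2m, the namesake of the family, was low, at 0.0830 FPKM in male and 0.498 FPKM in female nuclear RNA and 0.0938 FPKM in male and 0.00936 FPKM in female total RNA. The authors' deposited table called A2m higher in females in nuclear RNA (log2 -2.47) and higher in males in total RNA (log2 3.54), but the female total mean corresponds to about 0.904 reads per library. The size of that difference is therefore not interpretable. BC048546, listed as A2ml1 in the GRCm38.p6 RefSeq annotation, 13.101 kb from Pzp, had 0.0861 FPKM in male and 0.103 FPKM in female nuclear RNA, and 0.435 FPKM in male and 0.243 FPKM in female total RNA. It was called higher in males in total RNA by the authors' deposited table (log2 1.30, adjusted p = 3.7e-05).

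Among the thioester proteins listed with the macroglobulins, 8 were in the table. In nuclear RNA 2 were called higher in males, 3 higher in females and 3 not called by the authors' deposited table. In total RNA 5 were higher in males, 1 was higher in females and 1 was not called by the authors' deposited table, and Cd109 was listed at 0. These calls are 62.5% of the nuclear and 85.7% of the 7 total RNA genes above 0 by the authors' deposited table, against 5.8% and 4.46% of all genes and 48.6% and 25.1% of genes of at least 10 FPKM. The total RNA calls include A2m, at about 0.904 reads per library in females, and BC048546, below 1 FPKM in both sexes. The nuclear calls include A2m too, at about 8.28 reads per library in males and 50.7 in females. The called genes A2m, BC048546, Mug-ps1 and C4a were all below 10 FPKM in total RNA, so the levels of the 25.1% background are unlike theirs. The complement genes of this list were among those called. C3, whose thioester fixes the protein to surfaces, had 55.9 FPKM in male and 108 FPKM in female nuclear RNA and 250 FPKM in male and 427 FPKM in female total RNA, at log2 -0.83 and -0.36 by the authors' deposited table. Its call in total RNA lay at the threshold (adjusted p = 0.0496 by the authors' deposited table), while the adjusted p in nuclear RNA was 4.3e-09. Hc, which encodes complement component C5, a relative of C3 without the thioester, was called higher in males in total RNA only (33.9 FPKM in males and 26.6 FPKM in females, log2 0.78 by the authors' deposited table). C4a, whose reads may be shared with its near-copy C4b, had 13.3 FPKM in male and 1.12 FPKM in female nuclear RNA and log2 3.68 by the authors' deposited table. The more abundant C4b was called the other way in nuclear RNA, at 29.4 FPKM in males and 46.2 FPKM in females. Its log2 there was -0.53 (adjusted p = 2.0e-06 by the authors' deposited table), and it was not called in total RNA (log2 0.16). Lrp1, the receptor that clears macroglobulin and proteinase complexes, had 13.1 FPKM in male and 18.8 FPKM in female nuclear RNA and was called there (log2 -0.40, adjusted p = 0.0021 by the authors' deposited table). It was not called in total RNA (log2 -0.19, adjusted p = 0.82 by the authors' deposited table), at 14.8 FPKM in males and 23.1 FPKM in females. Of 6 genes listed for macroglobulin clearance, 2 were called in nuclear and 1 in total RNA, all higher in females, by the authors' deposited table, against 5.8% and 4.46% of all genes. The other call in nuclear RNA, and the call in total RNA, was Vldlr, a lipoprotein receptor below 1 FPKM and picked out after its values were seen, with 0.0951 FPKM in male and 0.271 FPKM in female nuclear RNA and 0.154 FPKM in male and 0.690 FPKM in female total RNA (log2 -1.39 and -1.74 by the authors' deposited table).

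The heavy chain genes of chromosome 14 were all lower in males in nuclear RNA. Itih4 averaged 51.4 FPKM in male and 112 FPKM in female nuclear RNA (log2 -1.01, adjusted p = 1.5e-15 by the authors' deposited table). Itih3 averaged 96.2 FPKM in male and 185 FPKM in female nuclear RNA (log2 -0.82, adjusted p = 6.9e-09 by the authors' deposited table). Itih1 averaged 20.2 FPKM in male and 38.6 FPKM in female nuclear RNA (log2 -0.81, adjusted p = 3.5e-08 by the authors' deposited table). Their male levels were thus 0.458, 0.521 and 0.522 of the female levels for Itih4, Itih3 and Itih1 as plain quotients of means.

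In total RNA none of these neighbours was called. Itih4 had 133 FPKM in males and 154 FPKM in females (log2 0.22, adjusted p = 0.91 by the authors' deposited table). Itih3 had 57.7 FPKM in males and 72.1 FPKM in females (log2 0.13, adjusted p = 1 by the authors' deposited table). Itih1 had 28.6 FPKM in males and 44.9 FPKM in females (log2 -0.22, adjusted p = 0.39 by the authors' deposited table). The plain quotients of the total RNA means were below 1 for each of them, at 0.863, 0.801 and 0.636, so the sign of Itih4 and Itih3 in total RNA depends on the scaling, as it does for Pzp and Ambp (quotients of 0.876 and 0.846). Whether the sex difference itself differed between nuclear and total RNA was not tested, because no values per pool were used. As a description, nuclear less total log2 was -1.23 for Itih4 and -0.95 for Itih3 by the authors' deposited table, ranks 7 and 13 from the bottom among 425 genes of at least 5 FPKM in every group. Itih1 lay at -0.59 (rank 36) and Ambp at -0.64 (rank 28) of those 425 genes.

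The nearest RefSeq genes on either side of the heavy chain cluster were not called in either fraction by the authors' deposited table. Tmem110, 9.265 kb away, had 0.506 FPKM in male and 0.639 FPKM in female nuclear RNA. Mustn1, 4.865 kb away, had 0.227 FPKM in male and 0.383 FPKM in female nuclear RNA, and Nek4, 8.198 kb away, had 0.975 and 1.27 FPKM in male and female nuclear RNA. Their nuclear log2 values by the authors' deposited table were -0.21 (adjusted p = 1), -0.66 (adjusted p = 0.87) and -0.27 (adjusted p = 0.83). Around the other members, Fkbp4 and Gm10069 (near Pzp), Taf3, Atp5c1 and Kin (near Itih2), and Zfp618 and Kif12 (near Ambp) were not called in either fraction by the authors' deposited table.

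Itih2, the heavy chain gene of chromosome 2, was called in total RNA instead. It averaged 17.1 FPKM in male and 20.6 FPKM in female nuclear RNA and was not called (log2 -0.14, adjusted p = 0.86 by the authors' deposited table). In total RNA it averaged 42.9 FPKM in males and 72.6 FPKM in females and was called (log2 -0.31, adjusted p = 0.028 by the authors' deposited table). Its neighbour Itih5, 22.859 kb away and a heavy chain family member, stood at 0.0949 FPKM in male and 0.133 FPKM in female nuclear RNA and at 0.312 FPKM in male and 0.472 FPKM in female total RNA, and was not called by the authors' deposited table.

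Ambp, which supplies bikunin and alpha-1-microglobulin, averaged 32.8 FPKM in male and 48.1 FPKM in female nuclear RNA (log2 -0.44, adjusted p = 0.033 by the authors' deposited table). In total RNA it averaged 145 FPKM in males and 171 FPKM in females and was not called (log2 0.20, adjusted p = 0.63 by the authors' deposited table). The sum of Itih1, Itih2 and Itih3, whose products bikunin carries, was 4.07 per Ambp in male and 5.07 in female nuclear RNA, and 0.891 in male and 1.11 in female total RNA, on the FPKM scale. The make-up of the heavy chain family, Itih4 included, also differed between the fractions. Itih3 made up 52% of the summed FPKM of the family in male and 51.8% in female nuclear RNA, against 22% in male and 21% in female total RNA. Itih4 made up 27.8% in male and 31.5% in female nuclear RNA, against 50.8% in male and 44.9% in female total RNA. The nuclear and total pools of males ran in different lanes, so in males fraction and lane cannot be told apart.

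The members ranged widely in nuclear relative to total RNA. Both are FPKM scaled to the depth of their own libraries, so a quotient is relative and gives no share of a gene's RNA held in nuclei. Relative to the median gene, log2 nuclear over total RNA (pseudocount 1 FPKM) was highest for Mug2 in males (1.28) and for Itih3 in females (1.65), and lowest for Ambp in both sexes (-2.03 in males and -1.51 in females). Itih3 had 96.2 FPKM in nuclear and 57.7 FPKM in total RNA of males, a quotient of 1.67, and 185 FPKM in nuclear and 72.1 FPKM in total RNA of females, a quotient of 2.56. Its neighbours had lower quotients, 0.386 in males and 0.727 in females for Itih4 and 0.706 in males and 0.860 in females for Itih1. Mug2 had a quotient of 2.43 in males and 1.42 in females, whereas Mug1 had 0.705 in males and 0.821 in females. The pseudogenes stood higher, with 4.94 in males and 3.70 in females for Mug-ps1, and 4.32 in males and 3.60 in females for Gm10319. Pzp, Itih2 and Ambp had quotients of 0.411, 0.399 and 0.226 in males and 0.440, 0.284 and 0.281 in females. Albumin (Alb), the main plasma protein, had 0.0699 in males and 0.0435 in females. No replicate test of this contrast could be made, and the count of members below the median gene depends on the set of genes used for centring.

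**Figure D4:**
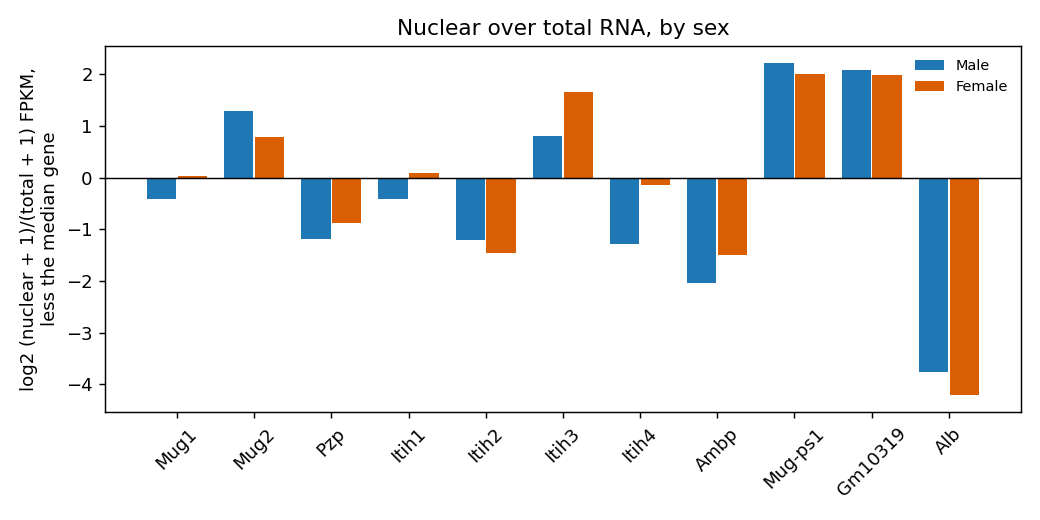
log2 of nuclear over total RNA, computed from the authors' mean FPKM plus 1 and less the median gene, in males (blue bars) and females (orange bars) for the 8 genes, the pseudogenes Mug-ps1 and Gm10319, and Alb for comparison. Mug2, Itih3 and the pseudogenes stand above 0 in both sexes, while Pzp, Itih2, Itih4, Ambp and Alb stand below 0.

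The acute-phase response is the change in liver secretion that follows inflammation and is driven by cytokines such as interleukin-6 and interleukin-1, and the heavy chain family includes members known to take part in it. Of 21 acute-phase genes listed, all in the table, 12 were called higher in females and none in males in nuclear RNA by the authors' deposited table, against backgrounds of 2.98% and 2.82% of genes and of 25.7% and 22.9% of genes of at least 10 FPKM. In total RNA 7 were called higher in males and 2 higher in females by the authors' deposited table, against 2.1% and 2.36% of genes and 11.5% and 13.6% of those of at least 10 FPKM. The list medians by the authors' deposited table were -0.48 in nuclear and 0.26 in total RNA over the 18 and 19 genes of at least 1 FPKM, beside -0.01 and 0.0020 for all 5759 and 6175 genes of that level. In plain quotients of the means the list's median was -0.60 in nuclear and -0.18 in total RNA, so its sign in total RNA turns with the scaling.

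Orm1, a plasma lipocalin, had 38.7 FPKM in male and 69.5 FPKM in female nuclear RNA and 121 FPKM in male and 102 FPKM in female total RNA. The authors' deposited table called Orm1 higher in females in nuclear RNA (log2 -0.74, adjusted p = 9.3e-09) and higher in males in total RNA (log2 0.67, adjusted p = 1.2e-04). The lipocalin gene Lcn2 had 3.48 FPKM in male and 14.1 FPKM in female nuclear RNA, and 15.9 FPKM in male and 10.5 FPKM in female total RNA, with log2 -1.89 and 0.92 by the authors' deposited table. Serpina3n, a serine proteinase inhibitor, had 15.5 FPKM in male and 41.3 FPKM in female nuclear RNA (log2 -1.29, adjusted p = 4.7e-18 by the authors' deposited table) and was not called in total RNA (log2 0.26, adjusted p = 0.93 by the authors' deposited table). Its total RNA means were 54 FPKM in males and 63.3 FPKM in females, so that sign also turns in the plain quotient. Lbp, the lipopolysaccharide-binding protein gene, had 8.44 FPKM in male and 16.7 FPKM in female nuclear RNA and was called there (log2 -0.87, adjusted p = 9.8e-16 by the authors' deposited table). Orm3 was called higher in females in both fractions, at log2 -2.65 in nuclear and -2.21 in total RNA by the authors' deposited table. Of 12 genes of acute-phase signalling, 1 was higher in males and 2 higher in females in nuclear RNA by the authors' deposited table. That is 25%, against 5.8% of all genes and 48.6% of genes of at least 10 FPKM. In each fraction 10 of the 12 reached 1 FPKM, so neither background matches their levels. The genes higher in females were Stat3, the transcription factor downstream of interleukin-6 (3.42 FPKM in males and 5.34 FPKM in females, log2 -0.52 by the authors' deposited table), and the tumour necrosis factor receptor gene Tnfrsf1a (2.02 FPKM in males and 2.98 FPKM in females, log2 -0.44 by the authors' deposited table). The call of Tnfrsf1a lay at the threshold (adjusted p = 0.0499 by the authors' deposited table). In total RNA 2 of the 12, the interleukin-1 receptor genes Il1r1 and Il1rap, were higher in males by the authors' deposited table (log2 1.19 and 0.57). That is 16.7%, against 4.46% of all genes and 25.1% of genes of at least 10 FPKM.

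**Figure D5:**
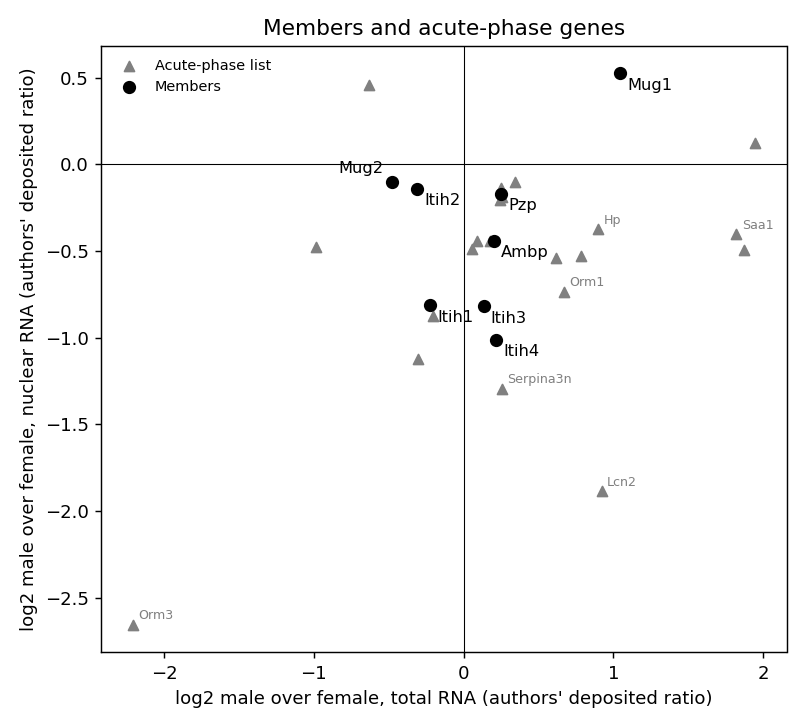
log2 male over female of the authors' deposited table in total RNA (x axis) and nuclear RNA (y axis) for the 8 genes (black circles) and the 21 genes of the acute-phase list (grey triangles). Pzp, Itih3, Itih4 and Ambp lie above 0 on the x axis and below 0 on the y axis. That quadrant also holds Orm1, Serpina3n, Lcn2 and further genes of the acute-phase list. In plain quotients Pzp, Itih3, Itih4, Ambp and Serpina3n would lie below 0 on the x axis. So would Apcs, Cp, Crp, Fga, Fgb, Fgg and Saa4 of that quadrant.

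For each member the genes with the most similar values were taken by Euclidean distance over 4 measures, the deposited log2 sex differences in both fractions and the nuclear over total log2 in both sexes, among the 425 genes of at least 5 FPKM in every group. For Itih4 these were Serpina3n, Fgl1 and Qsox1 (distances 0.492, 0.501 and 0.579). For Itih1 they were Steap4, Fn1 and Mt1 (0.266, 0.376 and 0.432), and for Itih3 Slc39a14, Nr1h4 and Mir1903 (0.485, 0.500 and 0.675). For Ambp they were Cfb, Fga and Serpinf2 (0.298, 0.339 and 0.441), for Itih2 Dgat2, Ttpa and Gnmt (0.0697, 0.0848 and 0.117), and for Pzp Fgg, Eif4a1 and Cyp2c70 (0.0778, 0.140 and 0.222). Mug1 lay nearest to Ces3a, H6pd and Gclc (0.453, 0.618 and 0.712), and Mug2 to Prodh2, Lifr and Sds (0.289, 0.349 and 0.403). The 4 group means behind these measures are few, and the distances are a description.

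Genes of hyaluronan and chondroitin sulphate metabolism were mostly below 1 FPKM. In the hyaluronan list, which holds its synthases, receptors, hyaluronidases and the heavy chain transferase Tnfaip6, 0 of 17 genes above 0 were called in nuclear and 0 of 14 in total RNA by the authors' deposited table, whose RefSeq part gives no unadjusted p. The background was 5.8% in nuclear and 4.46% in total RNA, and only 6 genes of that list reached 1 FPKM in either fraction. Of 17 genes for the chondroitin sulphate linkage, 1 was called in nuclear RNA by the authors' deposited table, Chpf2, at 2.03 FPKM in males and 2.87 FPKM in females (log2 -0.38), and 0 of 17 in total RNA. That is 5.88% of the list in nuclear RNA, near the background, and 3 of its genes reached 1 FPKM. Of 7 proprotein convertases above 0 in nuclear RNA, which cut such precursors, 1 was called higher in males and 1 higher in females by the authors' deposited table. In total RNA 1 of 8 was called. These are 28.6% and 12.5% of the list, against 5.8% and 4.46% of all genes and 48.6% and 25.1% of genes of at least 10 FPKM. All 7 in nuclear RNA and 5 in total RNA reached 1 FPKM, so neither background matches their levels. Pcsk5 was called higher in females in both fractions by the authors' deposited table (log2 -0.84 in nuclear and -0.68 in total RNA). Its levels were 1.04 FPKM in male and 2.00 FPKM in female nuclear RNA, and 0.315 FPKM in male and 0.709 FPKM in female total RNA. Pcsk6 was called higher in males in nuclear RNA (1.80 FPKM in males and 1.41 FPKM in females, log2 0.47, adjusted p = 0.039 by the authors' deposited table). In the list of Kunitz proteins, 1 of 10 genes above 0 was called in nuclear RNA by the authors' deposited table, the tissue factor pathway inhibitor gene Tfpi, below 1 FPKM and picked out after its values were seen (0.674 FPKM in males and 0.458 FPKM in females, log2 0.68), and 0 of 11 in total RNA. Of 8 lipocalins above 0, 1 was higher in males and 4 higher in females in nuclear RNA, and 2 and 1 in total RNA, by the authors' deposited table, or 62.5% and 37.5% against 5.8% and 4.46% of all genes and 48.6% and 25.1% of genes of at least 10 FPKM. Lcn2, Orm1 and Orm3, already counted on the acute-phase list, make up all of these calls in total RNA. With Ptgds they also make up all those higher in females in nuclear RNA. Ptgds, a prostaglandin D synthase, had 1.68 FPKM in male and 4.97 FPKM in female nuclear RNA (log2 -1.44, adjusted p = 8.4e-10 by the authors' deposited table). Rbp4, the retinol carrier, picked out after its values were seen, was the lipocalin called higher in males in nuclear RNA (22.1 FPKM in males and 18.1 FPKM in females, log2 0.40 by the authors' deposited table). Of 30 abundant plasma proteins, 4 were higher in males and 8 higher in females in nuclear RNA, and 5 and 3 in total RNA, by the authors' deposited table. These are 40% and 26.7% of the list, near the 48.6% and 25.1% of genes of at least 10 FPKM. Past C3 the smallest adjusted p-values belonged to F2, the prothrombin gene (18.6 FPKM in male and 28.8 FPKM in female nuclear RNA, log2 -0.51 by the authors' deposited table), Apoa1, the main protein of high-density lipoprotein (451 FPKM in male and 422 FPKM in female total RNA, log2 0.53 by the authors' deposited table), and Alb (2711 FPKM in male and 5481 FPKM in female total RNA, log2 -0.61 by the authors' deposited table).

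Within 50 kb of the members the deposited lncRNA table holds 19 long noncoding RNAs, of which 1 was called in total and 0 in nuclear RNA at a false discovery rate under 0.05 by the authors' deposited table, against 1.35% of 10706 and 4.88% of 13118 lncRNAs. The called one, ncRNA_intra_chr6_5591 (mm9 chromosome 6, 121836168 to 121904118, plus strand), overlaps the end of Mug1 on its strand, so its reads and those of Mug1 may not be separable. It had 4.28 RPKM in male and 1.60 RPKM in female total RNA (log2 1.80, false discovery rate 5.5e-04 by the authors' deposited table), and 20 RPKM in male and 15.5 RPKM in female nuclear RNA. The antisense ncRNA_as_chr6_5590, which overlaps part of Mug1 and part of Mug2, was the most abundant near a member, at 26.1 RPKM in male and 17.1 RPKM in female nuclear RNA (log2 0.74, false discovery rate 0.51 by the authors' deposited table). In the body of Itih1, ncRNA_as_chr14_11919 had 3.00 RPKM in male and 5.32 RPKM in female nuclear RNA (log2 -0.70, false discovery rate 0.21 by the authors' deposited table). Near the end of Pzp, ncRNA_as_chr6_5635 had 4.21 RPKM in male and 4.45 RPKM in female nuclear RNA and 1.24 RPKM in male and 0.411 RPKM in female total RNA, and was not called by the authors' deposited table. Over Mug2, ncRNA_intra_chr6_5593 had 4.66 RPKM in male and 4.84 RPKM in female nuclear RNA and was not called by the authors' deposited table. Each lncRNA was assigned to its nearest member only. Of those assigned to Itih2, Itih4 or Ambp, none exceeded 0.251 RPKM in a group. Higher ones assigned to Itih1, ncRNA_as_chr14_11919, ncRNA_inter_chr14_11918 and ncRNA_inter_chr14_11921, also lie within 50 kb of Itih4. In male and female nuclear RNA ncRNA_inter_chr14_11918 had 0.931 and 2.44 RPKM (log2 -1.24, false discovery rate 0.083 by the authors' deposited table). The values of ncRNA_inter_chr14_11921 there were 0.172 and 0.342 RPKM. Of the 19, 5 had an unadjusted p under 0.05 in nuclear RNA and 3 in total RNA by the authors' deposited table, where 18 and 15 of them were above 0, against 12.1% and 5.03% of all lncRNAs above 0. The libraries were directional, but whether counting used the strand is not stated, so reads of a member and of an antisense RNA may be mixed.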

How the data were processed

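RNA was measured by sequencing in 12 libraries, 3 pools for each of 4 groups, as the sample titles give them. Per the submitters' processing notes, TopHat2, featureCounts and edgeR were used with mm9, while their versions, the annotation release and strand settings are not stated. Per the file headers, the authors deposited the mean FPKM of each group, the male over female ratio scaled between libraries and its adjusted p-value for RefSeq genes. For lncRNAs the authors deposited mean RPKM, log2 fold change, p-value and false discovery rate, the comparison by edgeR per the legend. Which tool made the RefSeq comparison, and so what spread its p-values measure, is not stated. The deposited values were means, so the planned tests over pools could not be run and the authors' calls at 0.05 were used.

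Computed here were log2 of the deposited ratio, quotients of means, nuclear over total log2 with a pseudocount of 1 FPKM less the median of 7306 genes of at least 1 FPKM in a group, and library sizes from FPKM steps, approximate because they rest on the values' steps. Reads per library were estimated with GENCODE M21 transcript lengths. A count of 3 reads over a group's libraries corresponds to 0.0452 to 0.0532 FPKM for a transcript of 1 kb, for counting error only. Of the lncRNA rows, 2 stored in another order were left out. Calculations used Python 3.11.15, numpy 2.4.6, pandas 2.3.3, Biopython 1.88 and matplotlib 3.10.9, and were tested on simulated data. The text names all members, the 3 nearest genes to each by distance, RefSeq genes within 50 kb, A2m and Itih5, and, of each of 11 pathway lists, up to 4 called genes of at least 1 FPKM by adjusted p. It also names called lncRNAs within 50 kb or the most abundant one per member. Members and lists were chosen with earlier results of these data known. Alternatives were a threshold of 0.01, a fold threshold of 2, other scalings, a pseudocount of 0.1 FPKM, other filters and windows of 20 and 100 kb.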

Additional observations from a re-analysis of the deposited data

How the results depend on the processing

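Of the 5 members called in nuclear RNA in the authors' deposited table, 4 were called at 0.01 and 1 (Itih4) when a difference over 2-fold was also asked for. Of the 2 called in total RNA in the authors' deposited table, 1 (Mug1) was called at 0.01 and 1 (Mug1) at over 2-fold. Every called member kept its direction in the plain quotient of means and with either other scaling. Of the members not called in total RNA, 4 (Pzp, Itih3, Itih4 and Ambp) took the other sign in the plain quotient, at log2 -0.19, -0.32, -0.21 and -0.24. Below the median gene in nuclear over total RNA lay 6 members in males and 4 in females. Centred on the plasma protein list, 0 members lay below in males and 0 in females, and with a filter of 5 FPKM 4 lay below in males and 2 in females, so this count depends on the genes used for centring. In plain quotients of the means, an alternative chosen after seeing the data, the acute-phase list's median in total RNA was -0.18 against 0.26 in the deposited ratios. The lncRNA count near members was 1 under each window and threshold tried.

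No paired analysis was possible because the deposited tables used here hold group means and no column per pool. For the same reason leaving out each pool was not run, and neither the nuclear over total contrast nor the difference between fractions has a replicate test.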
